A study of Mus musculus with 14 samples.

Results

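The comparison described here was between the colonic epithelium of Smad4 KO mice that drank DSS and that of untreated Smad4 KO mice. It rests on 7 of the 14 libraries of the series, 3 from Smad4 KO mice given 2.5% DSS in the drinking water for 3 d and 4 from untreated Smad4 KO mice on plain drinking water. These were chosen by their labels, with earlier results of these data known. In both groups, adult mice carried floxed alleles of Smad4 and a tamoxifen-inducible Cre recombinase, Villin-CreERT2, which the villin promoter restricts to intestinal epithelial cells, and tamoxifen had been injected on several consecutive days, so that by their labels both groups shared the deletion and the injections and differed in DSS. One untreated library did not show the deletion, and the groups also differed in the prefix of the library names, as given below. The other 7 libraries, 4 untreated WT and 3 WT after DSS, shared the tissue and the dosing, and served to estimate the spread between libraries and to set WT values beside the Smad4 KO values. The epithelium of the whole colon was released from the mesenchyme with EDTA, and polyadenylated RNA was sequenced. The labels number the replicates and do not say that each is a separate mouse, so that p-values measure the spread between these libraries.

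DSS, dextran sulfate sodium, is a sulfated polysaccharide that damages the colonic surface epithelium and lets luminal bacteria reach the mucosa, and epithelial cells answer with antimicrobial proteins, cytokine signaling and repair. SMAD4 is the shared partner of the receptor-activated SMAD proteins, which carry TGF-beta and BMP signals to the nucleus, and in the colon BMP signals restrain crypt base cells and favor the differentiation of cells toward the surface. The question of the comparison was what DSS changed in an epithelium that had already lost this branch of signaling.

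Levels are given as normalized counts, the reads of a gene scaled to a library of mean size with edgeR's TMM factors, and where 2 runs of values follow a gene, the first is that of untreated replicates 1 to 4 and the second that of DSS replicates 1 to 3. Smad4 itself had 3111, 728, 920.3 and 690.1 in untreated replicates 1 to 4 and 863, 794 and 842 in DSS replicates 1 to 3. Untreated replicate 1 stood at the level of the WT libraries, which had 2332 to 3587, and went against its label, so that the calls, the called genes and the list medians are given with and without it. Where a list median is followed by a value in square brackets, the latter leaves out untreated replicate 1. It also stood apart in Id3, a direct target of BMP signaling named after its values were seen, which had 1216, 4.69, 38.9 and 81.0 in the untreated and 41.2, 49.4 and 139 in the DSS libraries. All 14 epithelial identity markers were present, with summed levels of 536402 to 667468 untreated and 589268 to 621326 after DSS (exact permutation test, two-sided p = 0.400). Total counts ran from 15117632 to 21795850. Mitochondrially encoded genes held 4.83% to 21.4% of the untreated and 4.05% to 5.20% of the DSS counts, the highest share being that of untreated replicate 4. In WT they held 8.23, 6.42, 30.6 and 32.8% of untreated replicates 1 to 4 and 4.54% to 6.87% after DSS. The part of these shares in the WT values below was not tested. The untreated Smad4 KO libraries correlated with each other at 0.929 to 0.972 (log scale, Pearson, over genes) and the Smad4 KO DSS libraries at 0.984 to 0.987, and untreated Smad4 KO replicates 2 and 4 stood apart in the first 2 principal components. Every DSS library of the Smad4 KO and no untreated one has a name that begins with the same letter, whose meaning is not given in the sources used here, so that this prefix and DSS cannot be told apart within the genotype.

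After DSS, 10 of 15127 genes passed the threshold of an adjusted p of 0.05 in edgeR's quasi-likelihood test, a fit of all 14 libraries. The 6 genes that rose, 0.0397% of all tested, were Per1, Gpd1, Slc25a4, Ccdc109b, Rpl34 and Gm10154, and the 4 that fell, 0.0264%, were Npas2, Trpm6, 2010002M12Rik and Churc1. Between them they hold a pair of circadian clock genes, a magnesium channel, an interferon-induced gene, the glycerol phosphate dehydrogenase of the cytosol, a carrier and a calcium channel subunit of the inner mitochondrial membrane, a zinc-binding protein gene and a ribosomal protein gene with one of its copies. In each of the 10, the 3 DSS libraries and the 4 untreated ones did not overlap, which was also so for 4.60% of all genes on the higher and 4.28% on the lower side, or 7.25% and 6.47% without untreated replicate 1. At an unadjusted p below 0.05, 580 genes (3.83%) were higher and 691 (4.57%) lower, and 673 (4.46%) and 658 (4.37%) without untreated replicate 1. Without untreated replicate 1, 4 genes were higher (0.0265%) and 1 lower (0.00663%), namely Rpl34, Ccdc109b, Gm10154 and Gm10709 against Trpm6. DESeq2 on the 7 Smad4 KO libraries called 40 genes higher (0.278%) and 30 lower (0.208%), among them all 10 of edgeR. On all 14 libraries it called 36 higher (0.238%) and 34 lower (0.225%), and on the 6 without untreated replicate 1 it called 34 (0.239%) and 31 (0.218%). With edgeR on the 7 libraries of Smad4 KO, Rpl34 alone passed. In a fit of all 14 libraries with the counts of Rpl34 and its copies summed, Ccdc109b, Npas2, Trpm6 and 2010002M12Rik passed. Per1, Gpd1, Slc25a4 and Churc1 did not pass in that fit. Gm10154, 2010002M12Rik and Gm10709 fall outside the rule for named genes and were chosen after their values were seen. By the sign of the log2 fold change alone, 46.7% of all genes tested were higher and 53.3% lower. Counts of list members below stand beside these shares and those given for an unadjusted p below 0.05.

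The calls were then followed as single libraries were left out. Leaving out untreated replicates 2, 3 and 4 in turn gave 3, 6 and 6 higher and 4, 3 and 3 lower genes, and leaving out DSS replicate 1, 2 or 3 gave 3 higher and 0 lower genes each time. Rpl34, Gm10154 and Ccdc109b passed in all 7 of these fits with 1 library left out, Trpm6 in 4, Npas2 in 3, Gpd1 and 2010002M12Rik in 2 each, Churc1 in 1, and Per1 and Slc25a4 in 0. Their log2 fold changes kept their sign throughout and ranged from 1.19 to 1.43 for Per1, with an edgeR adjusted p of up to 0.40 without DSS replicate 2, and from 0.82 to 1.08 for Slc25a4, with one of up to 0.35 without DSS replicate 1. With a term for the name prefix, which the WT libraries alone estimate because they hold either kind of name, Rpl34 and Gm10154 passed. The untreated WT libraries without that prefix, replicates 3 and 4, had mitochondrial shares of 30.6% and 32.8%, the highest of the group. Prefix and mitochondrial share thus cannot be told apart among the untreated WT libraries.

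**Figure D1:**
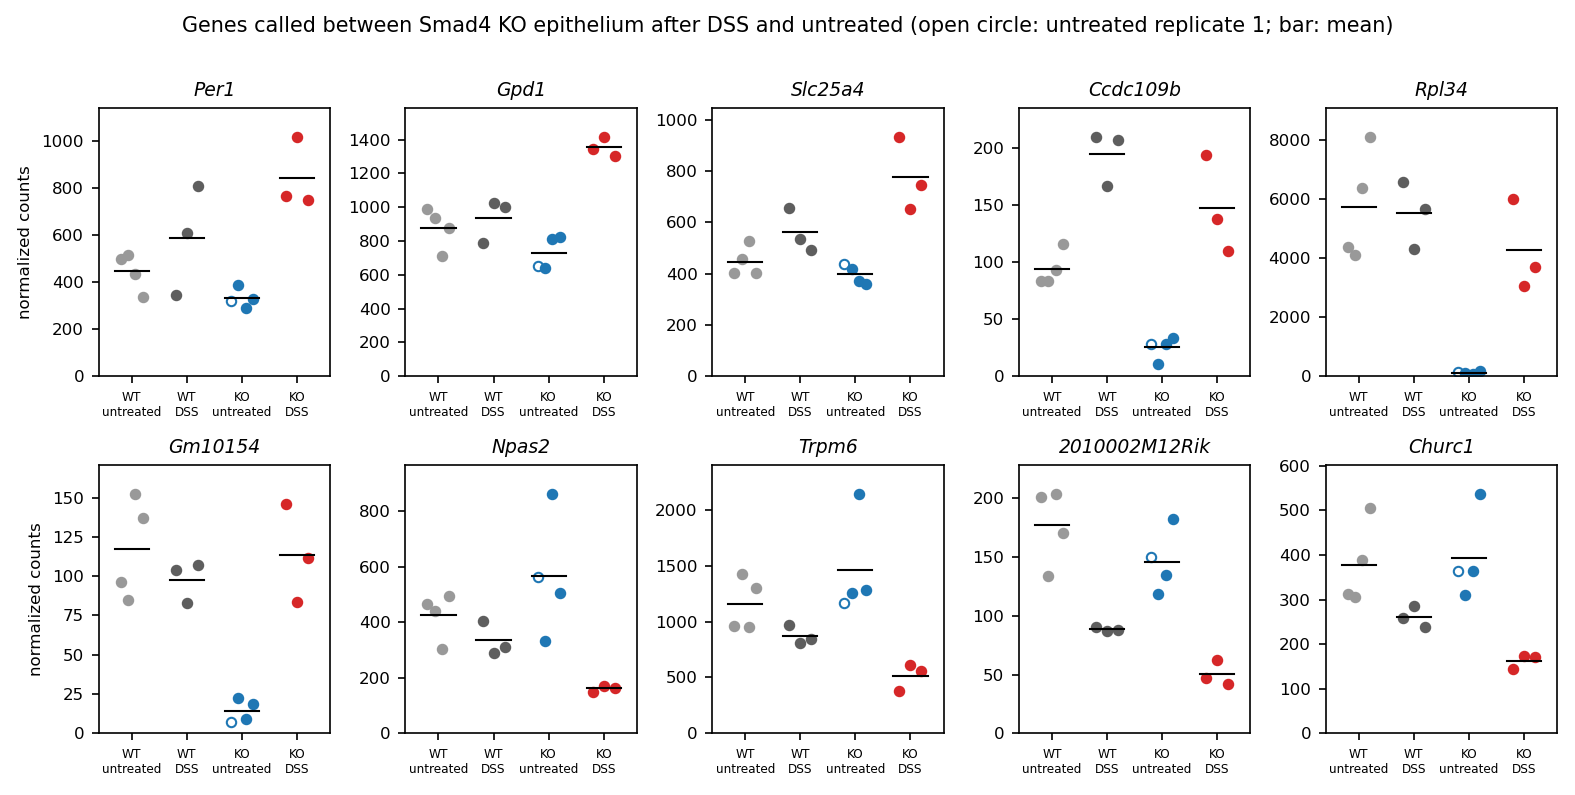
Normalized counts (y axes, linear from 0) of the 10 called genes in the 4 groups of libraries, 1 point per library and a bar at each mean, with an open circle for Smad4 KO untreated replicate 1. In every panel the 3 red points of Smad4 KO after DSS lie wholly above or wholly below the 4 blue points of untreated Smad4 KO, and Rpl34, Gm10154 and Ccdc109b are lower in untreated Smad4 KO than in any WT library.

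The circadian clock of a cell is a loop in which BMAL1, encoded by Arntl, pairs with CLOCK or NPAS2 at E-box sequences and switches on the Per and Cry genes, whose products shut the pair off again. Per1, a repressor of the loop on chromosome 11 from 68908719 to 68923462 (ENSMUSG00000020893) of mm9, rose. It had 319, 386, 291 and 329 normalized counts in untreated replicates 1 to 4 and 764, 1015 and 747 after DSS, a log2 fold change of 1.35 ± 0.23 (SE, edgeR adjusted p = 0.048). Npas2, an activator on chromosome 1 from 39250576 to 39420079 (ENSMUSG00000026077), fell, with 564, 333, 860.4 and 506 untreated and 150.3, 171 and 165 after DSS and a log2 fold change of -1.81 ± 0.27 (SE, edgeR adjusted p = 0.023). Without untreated replicate 1 the log2 fold changes were 1.33 and -1.81, and neither passed (edgeR adjusted p = 0.18 and 0.051).

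The other members of the clock list, named after their values were seen except Per2 and Per3, were arranged by their role. Arntl, the main partner of CLOCK, had 513, 459.7, 1089 and 764 untreated and 269.6, 195 and 259.6 after DSS. Clock had 2447, 2662, 2586 and 1395 and 2273, 1671 and 1808. Every DSS library was below every untreated library for Arntl, while the groups overlapped for Clock. Among the repressors, Per2 had 332, 486, 210.4 and 567 untreated and 954, 1127 and 901 after DSS. Per3 had 342, 285, 318 and 229 and 756, 749.9 and 616. Cry2 had 205, 197, 193 and 126 and 309.8, 373 and 289, whereas Cry1 overlapped between the groups with 114 to 341 and 216 to 291. Of the 5 Per and Cry genes, 4, Per1 included, had all DSS libraries above all untreated ones, beside 4.60% of all genes tested. The output genes of the clock that encode PAR bZIP factors included Dbp, with 200.0, 158, 12.1 and 40.0 untreated and 627, 843 and 640.1 after DSS. Tef had 498, 647, 198 and 308 and 1576, 1681 and 1290.1. In both, all DSS libraries were above all untreated ones. Nfil3, whose product competes with these factors, had 166, 182, 245 and 281 and 114, 124 and 114. Gm129, now named Ciart and encoding a further repressor, had 30.3, 39.9, 20.2 and 22.1 and 153, 146 and 136. The DSS libraries were all lower for Nfil3 and all higher for Gm129. The log2 fold changes were -1.55 for Arntl, 1.32 for Per2, 1.27 for Per3, 0.84 for Cry2, 2.78 for Dbp, 1.88 for Tef, -0.90 for Nfil3 and 2.37 for Gm129, with edgeR adjusted p-values of 0.33 to 0.54. In all, 17 of 19 members were tested, 11 were higher and 6 lower in the sign of the log2 fold change (beside 46.7% and 53.3% of all genes tested), 1 rose and 1 fell, and the median was 0.38, or 0.62 without untreated replicate 1, beside -0.02 over all genes tested. At an unadjusted p below 0.05, 7 were higher and 3 lower, beside 3.83% and 4.57% of all genes tested. DESeq2 on the 7 libraries called 5 higher (Per1, Per2, Per3, Tef and Gm129) and 2 lower (Npas2 and Arntl). Over all genes it called 0.278% higher and 0.208% lower. Nr1d1 and Nr1d2, which encode the REV-ERB repressors, had 537 to 1225 and 599.6 to 1563 untreated and 956 to 1205 and 1328 to 1538 after DSS, and overlapped.

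**Figure D2:**
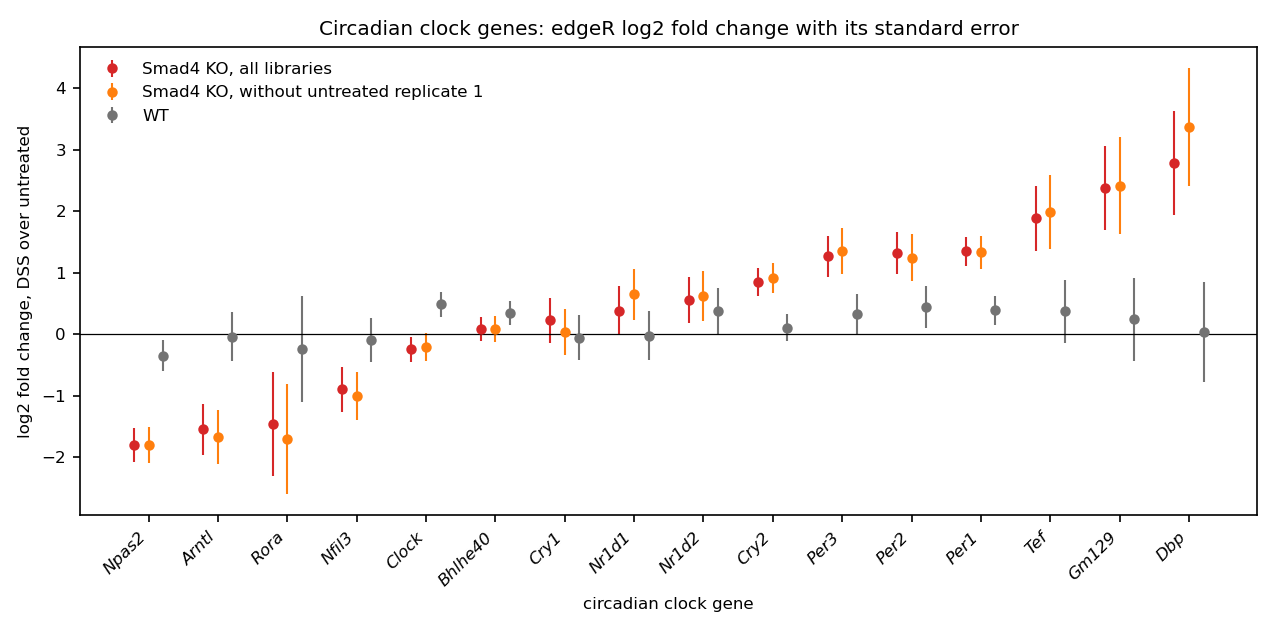
The log2 fold change of DSS over untreated (y axis) with its standard error (bars) for 16 of the 17 tested clock genes, in Smad4 KO with all libraries (red), in Smad4 KO without untreated replicate 1 (orange) and in WT (gray). The red values run from -1.81 for Npas2 to 2.78 for Dbp, and those of WT lie between -0.35 for Npas2 and 0.49 for Clock.

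The spread of these genes within the untreated libraries was large, and their levels follow the time of day. Dbp ranged from 12.1 to 200.0 in untreated Smad4 KO and from 37.9 to 1160.0 in untreated WT, where replicate 3 held the highest value of Dbp, Tef and Gm129 and the lowest of Arntl and Nfil3 in the group. For each of these 5 genes, that untreated WT library lay beyond all 3 Smad4 KO DSS libraries, with 2060.5 of Tef, 184 of Gm129, 117 of Arntl and 49.7 of Nfil3. The mice were taken around midday, and no time of harvest is given for a single library, so that its part in these differences was not tested. In WT, the log2 fold change of Per1 after DSS was 0.39 ± 0.23 (SE) and that of Npas2 -0.35 ± 0.26 (SE). The difference of the responses between the genotypes did not pass for either (edgeR adjusted p = 0.64 for Per1 and 0.64 for Npas2), although both were at an unadjusted p below 0.05.

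The E-box that BMAL1 and its partners prefer, CACGTG, which reads the same on both strands, was searched in a 300-base window around the start of each gene in RefSeq (GRCm38.p6). It stood in 1957 of 27025 windows (7.24%) and in 4 of the 14 tested clock genes that the table of windows holds, namely Per1, Tef, Gm129 (Ciart) and Cry1. The first 3 are shown because their groups did not overlap, with the E-boxes in capitals and the bases on either side in lower case.
Per1, chr11:69098738-69098833, plus strand: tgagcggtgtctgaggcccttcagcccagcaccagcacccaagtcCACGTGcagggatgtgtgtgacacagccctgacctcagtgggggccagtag
Tef, chr15:81802501-81802596, plus strand: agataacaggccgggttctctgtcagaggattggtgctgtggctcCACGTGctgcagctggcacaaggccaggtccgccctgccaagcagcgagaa
Ciart, chr3:95882222-95882389, minus strand: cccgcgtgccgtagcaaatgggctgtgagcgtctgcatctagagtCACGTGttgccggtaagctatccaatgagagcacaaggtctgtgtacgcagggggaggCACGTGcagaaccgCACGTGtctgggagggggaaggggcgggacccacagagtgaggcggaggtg
The E-box begins 166 bases before the start in Per1 and 127 in Tef, and Ciart has 3, at 116, 58 and 44 bases. The letters were not found in this window of Npas2, Arntl, Clock, Per3, Cry2, Dbp, Nfil3, Nr1d1, Nr1d2 or Rora. The D-box TTATGNAA, read on both strands, to which the PAR bZIP factors and NFIL3 bind, stood in 3.52% of all windows and in those of Per1 and Per3.

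Rpl34, which encodes a protein of the large ribosomal subunit, lies on chromosome 3 from 130429749 to 130433316 (ENSMUSG00000062006) and had the largest log2 fold change of the called genes. It had 127, 96.2, 68.8 and 173 normalized counts in untreated replicates 1 to 4 and 6003, 3062 and 3702 in DSS replicates 1 to 3, a log2 fold change of 5.20 ± 0.34 (SE, edgeR adjusted p = 1.2e-06), or 5.25 (edgeR adjusted p = 2.5e-05) without untreated replicate 1. Gm10154, a copy of it, rose too, from 6.93, 22.3, 8.90 and 18.9 to 146, 83.3 and 112, a log2 fold change of 3.02 ± 0.39 (SE, edgeR adjusted p = 0.0040), or 2.78 (edgeR adjusted p = 0.014) without untreated replicate 1. Another copy, Rpl34-ps1, had 8228, 10872, 5349 and 10509 untreated and 6607, 3565 and 4251 after DSS. In the untreated Smad4 KO libraries nearly all counts of this family were thus assigned to Rpl34-ps1, and after DSS they were divided between Rpl34-ps1 and Rpl34.

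The 3 copies are near-identical, and a stretch of the coding sequence (positions 118 to 237, counted from the A of the start codon) is shown because it holds all but 1 of the positions at which they differ, in capitals. The annotation and genome are NCBIM37, the build of mm9.
Rpl34, chromosome 3, minus strand, spliced: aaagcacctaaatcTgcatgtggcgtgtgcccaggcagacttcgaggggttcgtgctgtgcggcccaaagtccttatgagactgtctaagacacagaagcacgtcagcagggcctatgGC
Rpl34-ps1, chr6:71074721-71074840, plus strand: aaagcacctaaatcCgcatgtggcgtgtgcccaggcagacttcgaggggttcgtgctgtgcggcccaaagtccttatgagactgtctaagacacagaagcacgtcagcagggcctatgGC
Gm10154, chr4:83151206-83151325, minus strand: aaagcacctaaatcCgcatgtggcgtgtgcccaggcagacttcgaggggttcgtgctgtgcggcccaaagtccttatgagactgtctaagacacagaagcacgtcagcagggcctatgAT
Over the 354 coding bases, Rpl34-ps1 is identical at 352 (99.4%), with the differences T132C and C318G, and Gm10154 at 350 (98.9%), with T132C, G236A, C237T and C318G, the base of Rpl34 being named first. How the counting treated a pair that matches several copies is not stated, so that the counts of each copy are uncertain.

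The 3 copies summed to 8362, 10991, 5426 and 10700.4 normalized counts in the untreated and 12757, 6711 and 8064 in the DSS libraries, and the groups overlapped. Tested as 1 gene, the sum had a log2 fold change of 0.05 ± 0.30 (SE, edgeR adjusted p = 0.98), so that the sum did not pass where Rpl34 and Gm10154 did. The share of Rpl34 in the sum was 1.52, 0.875, 1.27 and 1.61% in untreated replicates 1 to 4 and 47.1, 45.6 and 45.9% after DSS. In WT it was 45.3, 46.6, 45.2 and 41.8% untreated and 88.9, 46.9 and 90.9% after DSS. The shares of the 14 libraries thus lay in 3 bands, below 2%, from 41.8% to 47.1% and from 88.9% to 90.9%, and untreated replicate 1, which has Smad4 at the WT level, lay in the lowest with the other untreated Smad4 KO libraries.

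**Figure D3:**
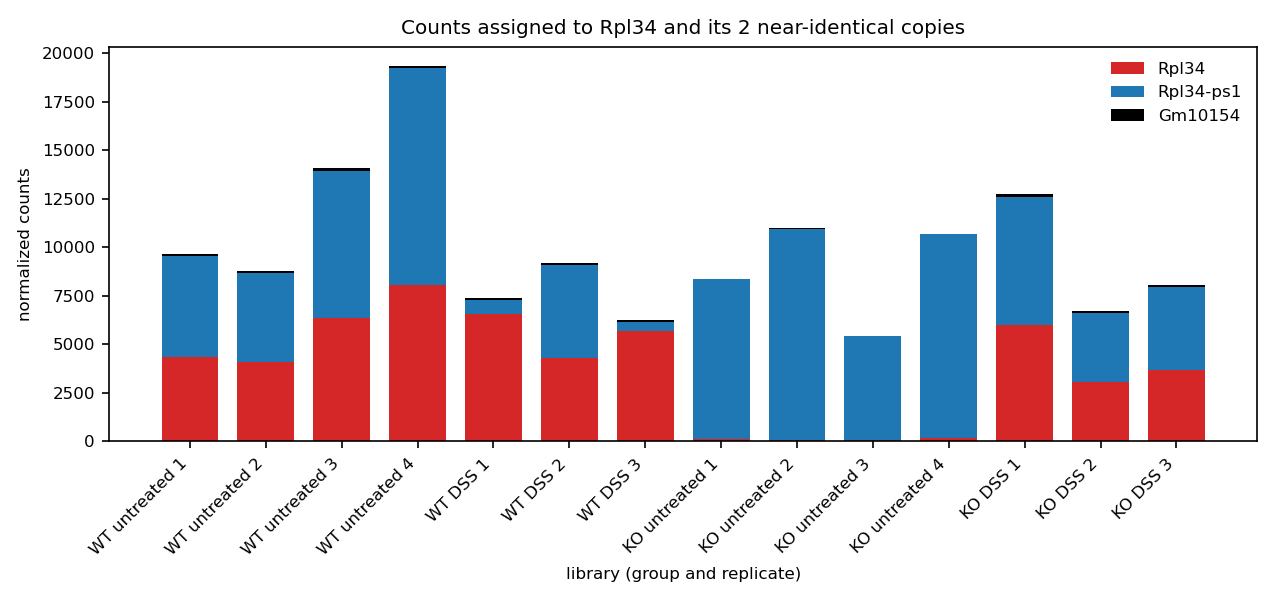
Normalized counts (y axis) assigned to Rpl34 (red), Rpl34-ps1 (blue) and Gm10154 (black), stacked for each of the 14 libraries. Red is nearly absent from the 4 untreated Smad4 KO bars, is close to the blue in height in the 3 Smad4 KO DSS bars, and makes up most of the bars of WT DSS replicates 1 and 3.

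Ccdc109b, now named Mcub and encoding a subunit that dampens the mitochondrial calcium uniporter, lies on chromosome 3 from 129617878 to 129673124 (ENSMUSG00000027994), 0.757 Mb from Rpl34. It had 28.6, 10.6, 28.3 and 33.7 normalized counts untreated and 195, 138 and 109.8 after DSS, a log2 fold change of 2.52 ± 0.32 (SE, edgeR adjusted p = 0.0040), and 2.59 (edgeR adjusted p = 0.014) without untreated replicate 1. WT libraries had 83.7, 83.8, 92.9 and 116 untreated and 209.8, 167 and 207 after DSS, so that the untreated Smad4 KO values were below those of all other libraries. From 1 Mb before Ccdc109b to 1 Mb after Rpl34, 17 genes were tested, of which these were the 2 called, and Agxt2l1, a phospholyase gene between them, was the 1 other gene with an unadjusted p below 0.05. Agxt2l1 had 56.3, 34.0, 26.7 and 34.7 untreated and 79.2, 77.5 and 88.9 after DSS (log2 fold change 1.11, edgeR adjusted p = 0.44). The other tested genes between them, Sec24b and Ostc, had log2 fold changes of -0.05 and 0.16.

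Gpd1, the cytosolic glycerol-3-phosphate dehydrogenase of the glycerol phosphate shuttle, and Slc25a4, the ADP/ATP carrier of the inner mitochondrial membrane, also rose. Gpd1, on chromosome 15 from 99547946 to 99555436 (ENSMUSG00000023019), had 650.2, 639, 812 and 821 untreated and 1346, 1414 and 1300.1 after DSS, a log2 fold change of 0.89 ± 0.15 (SE, edgeR adjusted p = 0.040). Slc25a4, on chromosome 8 from 47292151 to 47296638 (ENSMUSG00000031633), had 439, 418, 372 and 359.8 and 932, 653 and 747, a log2 fold change of 0.97 ± 0.16 (SE, edgeR adjusted p = 0.040). WT libraries had 709.8 to 1027 of Gpd1, below every Smad4 KO DSS library, and 402 to 656 of Slc25a4, where the highest, a WT DSS library, lay within the Smad4 KO DSS range. Without untreated replicate 1 neither passed (edgeR adjusted p = 0.16 and 0.087).

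Among genes of solute uptake at the colonic surface, Trpm6, the apical magnesium channel on chromosome 19 from 18824473 to 18967000 (ENSMUSG00000024727), fell from 1165, 1257, 2139 and 1285 to 375, 614 and 558 normalized counts, a log2 fold change of -1.50 ± 0.23 (SE, edgeR adjusted p = 0.027), and -1.60 (edgeR adjusted p = 0.028) without untreated replicate 1. Untreated replicate 3 held the highest value, and the other 3 untreated libraries were also above all 3 DSS libraries. Aqp8, the water channel of surface colonocytes, had 3729.5, 3435, 3051 and 4796 untreated and 2277, 1784 and 1406 after DSS (log2 fold change -1.04 ± 0.20 SE, edgeR adjusted p = 0.12), and did not pass in edgeR while it did in DESeq2 on the 7 libraries (adjusted p = 0.0027) and on the 6 without untreated replicate 1 (adjusted p = 0.015). Of the 34 tested genes of absorptive transport, 13 were higher and 21 lower, with a median of -0.13 (-0.17 without untreated replicate 1). None passed in edgeR, 2 higher and 4 lower genes had an unadjusted p below 0.05, and DESeq2 called 1, Aqp8. The carbonic anhydrase Car4 had 5251, 5713, 7585 and 10613 and 4810.4, 4646 and 3218 (log2 fold change -0.79). The phosphate transporter Slc20a1 and the sugar phosphate exchanger Slc37a2 had log2 fold changes of -0.72 and -0.71, with no overlap of the groups in either. Car1, a cytosolic carbonic anhydrase, had 15989.9 to 22967 and 17926 to 29675 and overlapped.

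Further transporters, named after their values were seen, were called lower by DESeq2 in each of its fits, of 14, 7 and 6 libraries. They were Slc17a4 and Slc17a1, organic anion and urate transporters of the sodium phosphate cotransporter family. Slc17a4 had 671, 790.5, 796 and 936 normalized counts untreated and 447, 373 and 470.3 after DSS, and Slc17a1 had 57.5 to 133 and 10.7 to 34.0, both without overlap. In all, 32 genes were called in the 3 DESeq2 fits, 17 higher and 15 lower, and they included the 10 of edgeR. Ddc, the aromatic amino acid decarboxylase, had 1738, 954, 1065 and 1139 untreated and 699, 659 and 666 after DSS (log2 fold change -0.86, edgeR adjusted p = 0.17). Churc1, a small zinc-binding protein gene on chromosome 12 from 77866525 to 77884167 (ENSMUSG00000090258), fell from 364, 309.6, 365 and 536 to 145, 173 and 171 (log2 fold change -1.27 ± 0.22 SE, edgeR adjusted p = 0.048), and did not pass without untreated replicate 1 (edgeR adjusted p = 0.11).

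Of 24 tested genes of the brush border and of surface differentiation, 8 were higher and 16 lower (median -0.12 [-0.10]), and none passed in edgeR, with 1 higher and 3 lower at an unadjusted p below 0.05 and none in DESeq2. Mal, a proteolipid of apical sorting, had 146, 57.5, 102 and 42.1 untreated and 46.3, 29.1 and 32.0 after DSS, and its groups overlapped in the values of untreated replicate 4 and DSS replicate 1. Vil1, which encodes the microvillus protein villin and whose promoter drives the Cre, had 12983, 12726, 12651 and 13931 and 17640.2, 16756 and 15774 (log2 fold change 0.36), and Espn, an actin bundler, had a log2 fold change of -0.50. Krt20, the keratin of differentiated surface cells, had 8112 to 11550.3 and 6607 to 8539, and Cdh1, E-cadherin, had 24702, 25921, 28221 and 26574 and 15436, 19923 and 18399.5 (log2 fold change -0.56, edgeR adjusted p = 0.36, DESeq2 adjusted p = 0.044 in the 7 libraries).

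2010002M12Rik, now named Ifit1bl2, a relative of the antiviral Ifit1 that is not on the interferon list, lies on chromosome 19 from 34691539 to 34715233 (ENSMUSG00000067297) and fell from 149.8, 118, 134 and 182 to 47.3, 62.0 and 41.9 (log2 fold change -1.53 ± 0.25 SE, edgeR adjusted p = 0.033), and without untreated replicate 1 the log2 fold change was -1.52 (edgeR adjusted p = 0.087). Its WT values were 201, 134, 203 and 170.4 untreated and 90.4, 87.2 and 87.8 after DSS. Gm14446, now named Ifit1bl1 and of the same family, had 3970.2, 4463, 4749.6 and 4673 and 2872, 2897 and 2598 in Smad4 KO (log2 fold change -0.68, edgeR adjusted p = 0.26). On the higher side, Ido1, the interferon-induced enzyme that breaks down tryptophan, had 139, 169, 312 and 299.8 untreated and 989, 687 and 587 after DSS, a log2 fold change of 1.71 ± 0.35 (SE, edgeR adjusted p = 0.17). The transcription factor Irf8 had 2019, 2174, 2632 and 2399 and 3186, 3512 and 3379. Irf1, a transcription factor that interferon induces, had 3466, 3110.3, 3582 and 4271 and 5765, 4743 and 4769. In these 3 every DSS library was above every untreated library. None of the 47 tested genes of the interferon list passed in edgeR, 6 were higher and 7 lower at an unadjusted p below 0.05, and DESeq2 on the 7 libraries called Ido1 higher and Gm14446 and Ifit1 lower. By sign, 17 were higher and 30 lower, beside 46.7% and 53.3% of all genes tested, and the median was -0.11, or -0.23 without untreated replicate 1. The shares of all genes at an unadjusted p below 0.05 were 3.83% higher and 4.57% lower.

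Further members, named after their values were seen, included the antiviral effectors on the lower side. Ifit1 had 417, 457, 498 and 739.5 untreated and 226, 280.0 and 259.6 after DSS. Rsad2, which encodes viperin, had 91.8, 236, 204 and 115 and 35.0, 105 and 57.9. Oas3, a sensor of double-stranded RNA, had 269, 311, 541 and 481 and 155, 229 and 258. Ifit1 and Oas3 did not overlap between the groups, and Rsad2 did. On the higher side were Socs1, a feedback inhibitor of cytokine receptors, and the immunity-related GTPase genes Igtp and Iigp1, with log2 fold changes of 0.98, 0.53 and 0.68. Of the antigen presentation lists, 8 of 9 tested class II genes were higher (median 0.31 [0.36]) and 12 of 17 class I and immunoproteasome genes (median 0.14 [0.11]), beside 46.7% of all genes tested. None was past the threshold in edgeR or in DESeq2 on the 7 libraries, and 1 and 2 higher genes had an unadjusted p below 0.05, beside 3.83% of all genes tested. Ciita, the master regulator of class II genes, had 281, 131, 451 and 181 and 574, 577 and 458. The immunoproteasome subunit Psmb8 had 1931, 1661, 1849 and 2926 and 4516, 3092 and 3574 (log2 fold changes 1.03 and 0.83), both without overlap. H2-Q2, a class I gene, had a log2 fold change of 0.37.

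Of 25 tested genes for secreted antimicrobial and acute phase proteins, 15 were higher by sign (median 0.30, or 0.11 without untreated replicate 1), beside 46.7% of all genes tested. None passed in edgeR, and 7 were higher and 1 lower at an unadjusted p below 0.05, beside 3.83% and 4.57% of all genes tested. S100a8, a subunit of calprotectin, was the 1 that DESeq2 called (adjusted p = 3.3e-04 in the 7 libraries). It had 6.93, 4.69, 59.1 and 16.8 normalized counts untreated and 283, 233 and 139.8 after DSS (log2 fold change 3.28 ± 0.74 SE, edgeR adjusted p = 0.25), and its partner S100a9, named after its values were seen, had 8.66, 0, 39.7 and 14.7 and 113, 129 and 36.9. S100a8 did not overlap between the groups, and S100a9 did, by untreated replicate 3 and DSS replicate 3. Reg3b, an antibacterial lectin, had 6671, 42246, 51496 and 51972 and 207040.0, 104048 and 55731, with the lowest value in untreated replicate 1. Lcn2, which binds bacterial siderophores, had 152, 125, 407 and 205 and 517, 474 and 319.5, and untreated replicate 3 lay within the DSS range. Pla2g5, a secreted phospholipase, had 754 to 1255 and 1288 to 1973, without overlap. The neutrophil marker list had summed levels of 1198 to 2569 untreated and 1614 to 1893 after DSS, with 3 of 14 members tested. Most of that sum was Ly6g, with 1024 to 2164 and 1152 to 1314, while the defining granule genes Mpo, Elane and Camp were at 2.10 or less in every library and Elane at 0 in all 7. Of the 3 tested members, 2 were higher by sign and Ly6g was lower. Their log2 fold changes ran from -0.21 to 0.77, and none had an unadjusted p below 0.05.

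**Figure D4:**
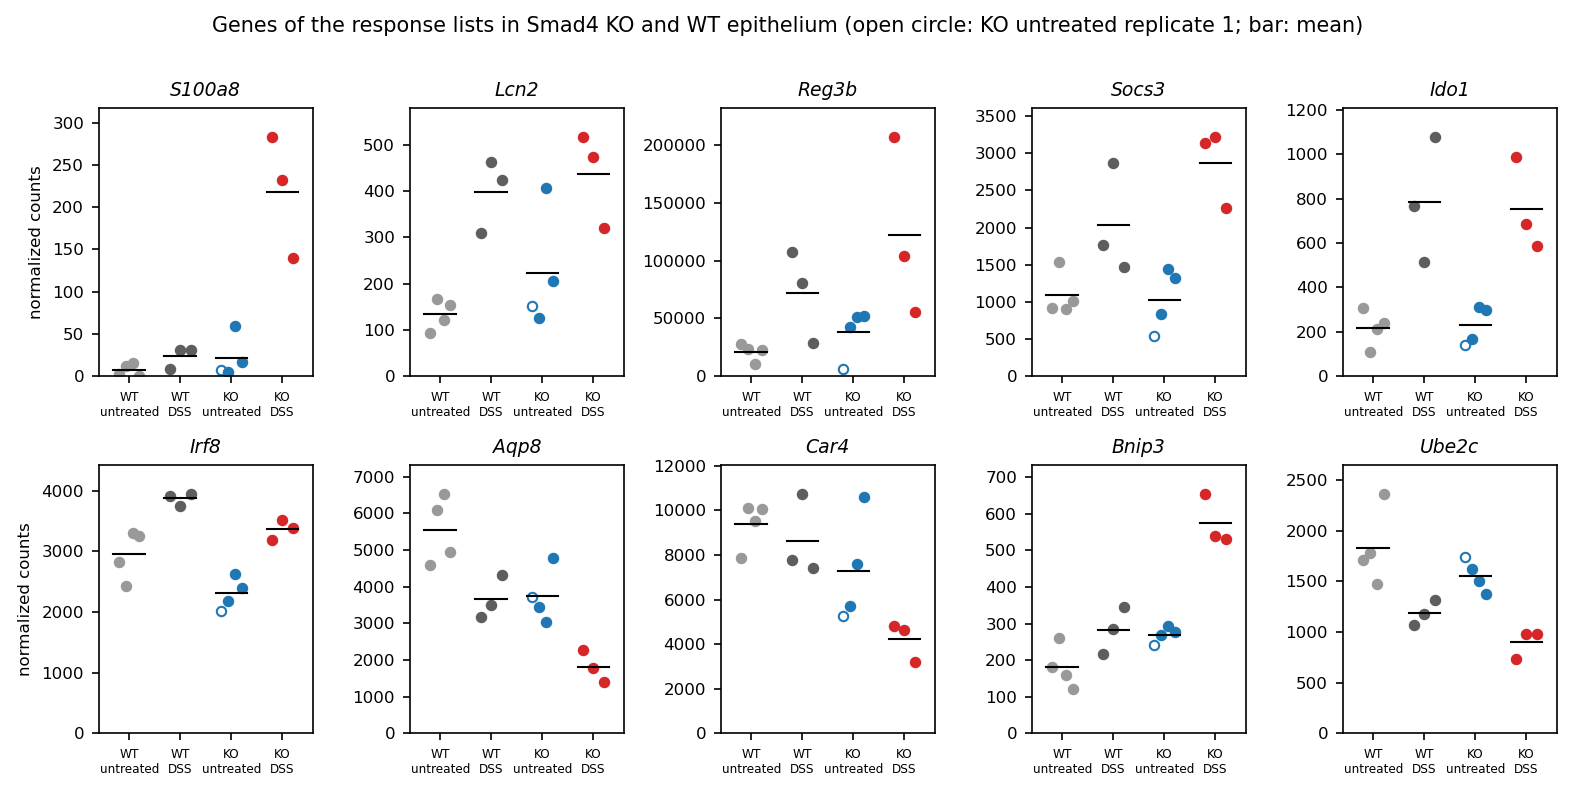
Normalized counts (y axes, linear from 0) of 10 genes of the response lists in the 4 groups, 1 point per library with a bar at the mean and an open circle for Smad4 KO untreated replicate 1. The red DSS points lie above the blue untreated points for S100a8, Reg3b, Socs3, Ido1, Irf8 and Bnip3 and below them for Aqp8, Car4 and Ube2c, while those of Lcn2 overlap.

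Among genes of cytokine signaling, Socs3, a feedback inhibitor of STAT3 signaling, had 537, 837, 1437 and 1316 untreated and 3142, 3217 and 2262 after DSS, a log2 fold change of 1.48 ± 0.30 (SE, edgeR adjusted p = 0.17, DESeq2 adjusted p = 0.0013 in the 7 libraries). Fut2, a fucosyltransferase of the epithelial surface, had 6408, 6666, 6372 and 8219.9 and 10535, 9582 and 8935 (log2 fold change 0.49). Of the 15 tested genes of the STAT3 axis 11 were higher (median 0.15 [0.18]), none passed in edgeR, 2 higher and 1 lower genes had an unadjusted p below 0.05, and DESeq2 called Socs3. The chemokines and cytokines had 13 of 22 higher and a median of 0.02 [-0.05], with no call in edgeR or DESeq2 and 1 gene at an unadjusted p below 0.05. The NF-kB feedback and target genes had 11 of 19 higher and a median of 0.09 [0.11], none passed in either tool, and 2 higher and 1 lower genes had an unadjusted p below 0.05. Icam1, the adhesion molecule that leukocytes bind, had 58.0, 63.3, 129.5 and 74.7 and 141, 232 and 176 (log2 fold change 1.16), and Zc3h12a, an RNase that limits inflammatory transcripts, had a log2 fold change of 0.69. Among oxidases and peroxide defense, Noxa1, the activator of NADPH oxidase 1, had 1879, 2583, 2072 and 3146 and 3846, 3919 and 3683. Gpx2, the gastrointestinal glutathione peroxidase, had 12060.4, 16528, 19894 and 20605 and 34004, 20852 and 25703, and neither gene overlapped. Of these 20 genes 13 were higher, none passed in either tool, and 3 higher and 1 lower genes had an unadjusted p below 0.05. Duoxa2, the maturation factor of a hydrogen peroxide-producing oxidase, and Prdx6, a peroxiredoxin, had log2 fold changes of 0.76 and -0.58. The counts of these 4 lists stand beside 46.7% of all genes tested that were higher by sign. At an unadjusted p below 0.05, 3.83% of all genes tested were higher and 4.57% lower.

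**Figure D5:**
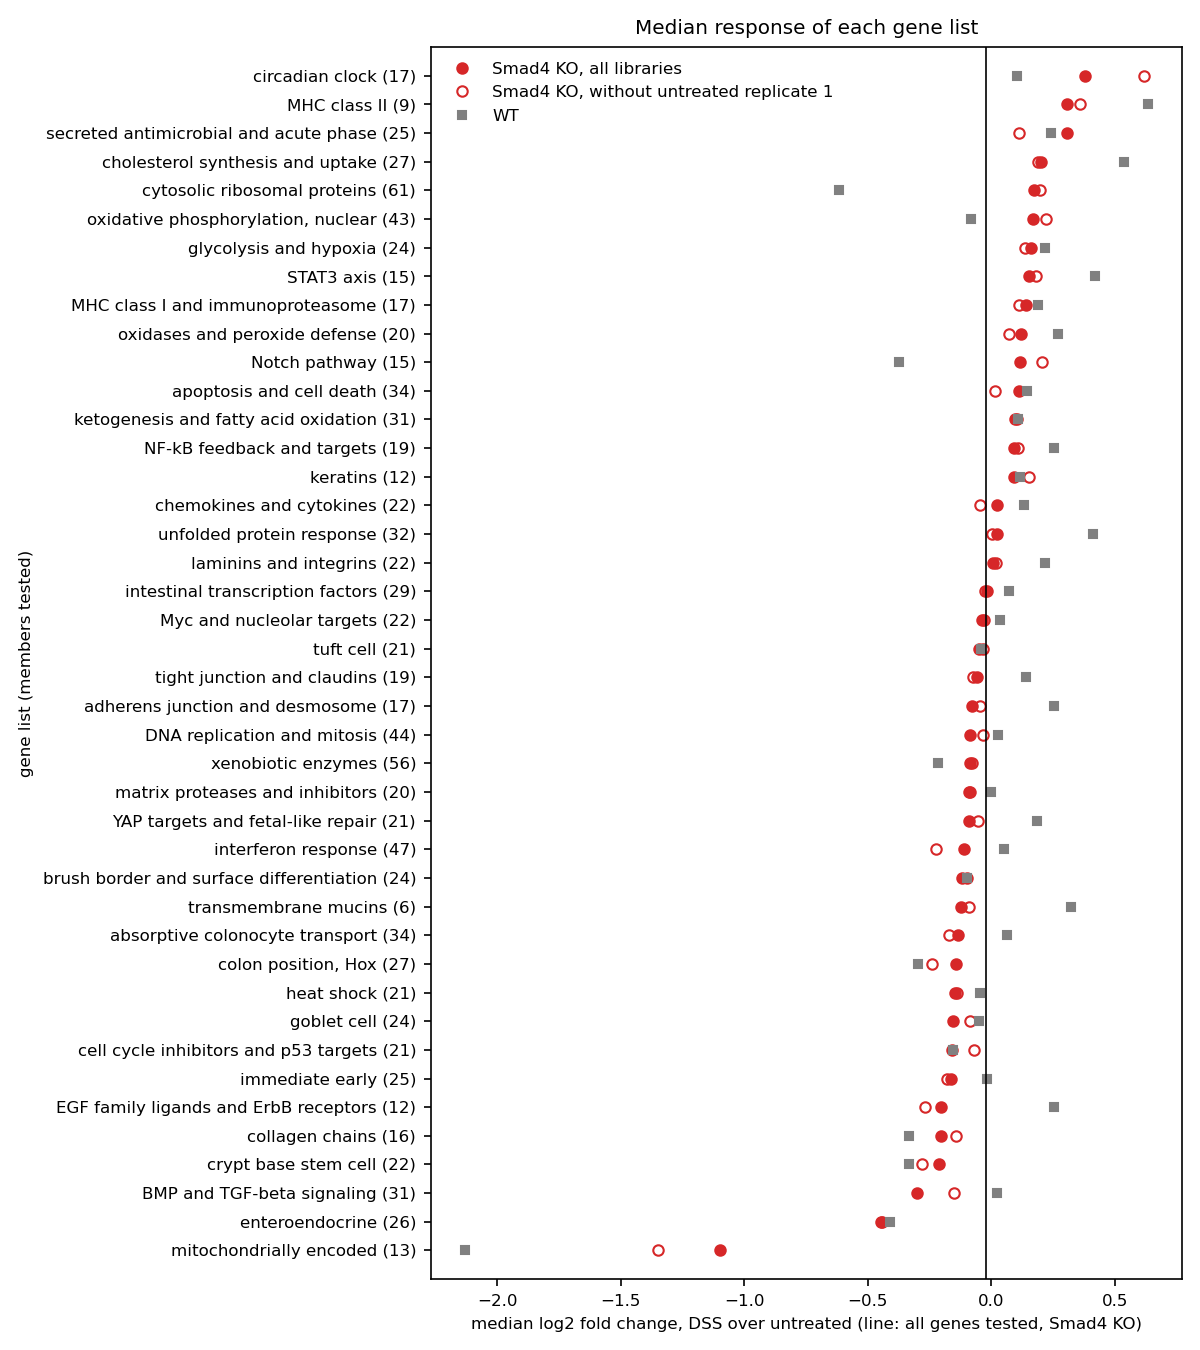
Median log2 fold change of DSS over untreated (x axis) for each gene list other than the cell type markers (y axis, members tested in parentheses), in Smad4 KO with all libraries (filled red), in Smad4 KO without untreated replicate 1 (open red) and in WT (gray squares), with a line at the median of all genes tested in Smad4 KO. Of the filled points, the clock list lies farthest to the right at 0.38 and the mitochondrially encoded genes farthest to the left at -1.10.

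Of 44 tested genes of DNA replication and mitosis, 18 were higher and 26 lower (median -0.09, or -0.03 without untreated replicate 1), beside 46.7% and 53.3% of all genes tested. None was past the threshold in edgeR. At an unadjusted p below 0.05, 2 were higher and 5 lower, beside 3.83% and 4.57% of all genes tested. Ube2c, the ubiquitin conjugase of mitotic exit, had 1736, 1616, 1497 and 1371 untreated and 729, 975 and 984 after DSS (log2 fold change -0.80 ± 0.17 SE, edgeR adjusted p = 0.18) and was the member that DESeq2 called (adjusted p = 0.0048 in the 7 libraries). The kinetochore genes Cenpf and Cenpe had log2 fold changes of -0.68 and -0.60. Mki67, a marker of cycling cells, had 4948, 5858, 6000.1 and 3135 and 3409.7, 3200.0 and 2849.9, and untreated replicate 4 lay within the DSS range. Ccnd1, the cyclin of G1, was on the other side, with 1331, 1872, 2089 and 1180.3 and 2322, 2771 and 2700.1 (log2 fold change 0.68).

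Cell cycle inhibitors and p53 targets were lower by sign in 16 of 21 tested (median -0.16 [-0.07]), beside 53.3% of all genes tested. None was past the threshold in either tool, and 4 lower genes had an unadjusted p below 0.05, beside 4.57% of all genes tested. Mdm2, which marks p53 for destruction, had 934, 898, 993 and 1116 untreated and 594, 694 and 681 after DSS. Gdf15, a stress-induced cytokine, had 83.1, 108, 129 and 89.4 and 40.1, 57.2 and 59.9, and neither gene overlapped. Cdkn1a, which encodes the inhibitor p21, had 2778, 1016, 1389 and 2318 and 1094, 1248 and 1297, with the highest value in untreated replicate 1 (log2 fold change -0.63 with it and -0.38 without it). Of the Myc and nucleolar targets 10 of 22 were higher (median -0.04 [-0.03]) and none passed in either tool, and Myc, the growth-promoting transcription factor, had 785 to 1015 and 786 to 862, with overlap. Mxd3 and Mxd1, which encode antagonists of MYC, had log2 fold changes of -0.84 and -0.62.

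Crypt base genes were lower in sign for 18 of 22 tested, beside 53.3% of all genes tested, with a median of -0.21 and -0.28 without untreated replicate 1. None passed in edgeR, and 5 lower genes had an unadjusted p below 0.05, beside 4.57% of all genes tested. DESeq2 called none in the 7 and Lgr5 in the 6 libraries (adjusted p = 0.043). Lgr5, the R-spondin receptor that marks colonic stem cells, had 319, 409, 435 and 397 untreated and 254, 233 and 241 after DSS, and every DSS library was below every untreated library. Ascl2, a transcription factor of the same cells, had 288, 92.7, 43.7 and 112 and 67.9, 49.4 and 72.9, and its log2 fold change was -1.08 with and -0.37 without untreated replicate 1. Ephb3, which positions cells along the crypt, had 1384, 996, 758 and 929 and 563, 646 and 783, and the groups of both overlapped.

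Among BMP and TGF-beta genes, 22 of 31 tested were lower (median -0.30, or -0.15 without untreated replicate 1), beside 53.3% of all genes tested. None passed in either tool, and 5 lower genes had an unadjusted p below 0.05, beside 4.57% of all genes tested. The ligand gene Bmp2 had 844, 720.1, 1358 and 875 untreated and 374, 577 and 563 after DSS (log2 fold change -0.91), without overlap. Tgfbi, a matrix protein gene induced by TGF-beta, had 54.5, 115, 50.2 and 67.3 and 21.6, 35.8 and 37.9, also without overlap. Id2, a target of BMP signaling, had 371, 155, 76.1 and 150.4 and 83.4, 95.9 and 94.9, and its log2 fold change went from -1.04 to -0.47 without untreated replicate 1. Tgif1, a corepressor of SMAD proteins, had a log2 fold change of -0.53. Pdgfa, a growth factor for mesenchymal cells, had 891, 2565, 1752 and 4138 and 1692, 2157 and 1944 and overlapped.

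Of the secretory lineages, 24 of 26 tested enteroendocrine genes were lower, with a median of -0.44 [-0.45] in Smad4 KO and -0.41 in WT, none passed in either tool on the 7 libraries, and 1 higher and 4 lower genes had an unadjusted p below 0.05. Among the higher was Tac1, which encodes substance P and had 1184, 874, 3964 and 2844 untreated and 9199.9, 4479.9 and 5236 after DSS (log2 fold change 1.51). Gcg, for the glucagon-like peptides, had 1291, 1667, 923 and 1383 untreated and 814, 825 and 737 after DSS. Nts, for neurotensin, had 72.7, 280.3, 67.2 and 274 and 52.5, 36.8 and 53.9, and both hormone genes had all DSS libraries below all untreated ones. Pyy, for peptide YY, had a log2 fold change of -0.59. In bulk samples, fewer cells of a type and less RNA per cell cannot be told apart. Goblet cell genes were lower in 18 of 24 (median -0.16 [-0.09]), with Muc2, the secreted gel-forming mucin, at 139667, 181242, 191174 and 220225 and 138957, 161102 and 153745, and tuft cell genes in 13 of 21 (median -0.05 [-0.03]), with Lrmp, a tuft cell marker, at a log2 fold change of -1.11. No goblet or tuft gene passed in either tool, with 1 higher and 2 lower goblet genes and 1 lower tuft cell gene at an unadjusted p below 0.05. The counts of these lineages stand beside 53.3% of all genes tested that were lower by sign. At an unadjusted p below 0.05, 3.83% of all genes tested were higher and 4.57% lower.

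Nuclear genes of oxidative phosphorylation were higher in 32 of 43 (median 0.17 [0.22], 5 at an unadjusted p below 0.05 and none called in either tool), beside 46.7% of all genes tested. The mitochondrially encoded genes were higher in 1 of 13 (median -1.10 [-1.35], 2 lower at an unadjusted p below 0.05 and none called in either tool), and mt-Nd6, a subunit of complex I, had 28494, 47616, 21504 and 135297 untreated and 14012, 15805 and 16697 after DSS, the highest in untreated replicate 4. Cytosolic ribosomal protein genes were higher in 49 of 61 (median 0.17 [0.20] in Smad4 KO and -0.62 in WT), with Rpl34 as the 1 call of edgeR and Rpl34 and Rps2 as those of DESeq2 on the 7 libraries. At an unadjusted p below 0.05, 6 were higher and 1 lower, beside 3.83% and 4.57% of all genes tested. Untreated WT replicates 3 and 4 had mitochondrial shares of 30.6% and 32.8%, whose part in the WT median was not tested. Rps2, of the small subunit, had 378, 333, 513 and 539.6 untreated and 647, 11794 and 12069.6 after DSS, and in WT 15356, 16493, 493 and 718 and 399, 426 and 12766, values at 2 levels that did not follow the groups. Cox5b, of complex IV, and Rps29 had log2 fold changes of 0.75 and 0.77, both with their lowest value in untreated replicate 3. Genes of cholesterol synthesis and uptake were higher in 21 of 27 (median 0.20 [0.19] in Smad4 KO and 0.54 in WT), 4 higher at an unadjusted p below 0.05 and none past the threshold in either tool, Sqle, squalene epoxidase, having a log2 fold change of 0.46. Of the glycolysis and hypoxia genes 19 of 24 were higher (median 0.16 [0.13]), 4 had an unadjusted p below 0.05, none passed in edgeR, and DESeq2 called Bnip3, a hypoxia-induced gene of mitophagy, which had 242, 267, 294 and 277 untreated and 654, 539 and 532 after DSS (log2 fold change 1.09 ± 0.22 SE, edgeR adjusted p = 0.17, DESeq2 adjusted p = 8.1e-06 in the 7 libraries). The glycolytic genes Pgk1, Tpi1 and Pfkl had log2 fold changes of 0.48, 0.39 and 0.39.

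Medians of the remaining lists were 0.02 [0.0026] for the unfolded protein response (0.41 in WT), 0.10 [0.10] for ketogenesis and fatty acid oxidation, -0.09 [-0.08] for xenobiotic enzymes, -0.15 [-0.14] for heat shock, -0.16 [-0.18] for immediate early genes, -0.09 [-0.05] for YAP targets and fetal-like repair, -0.20 [-0.27] for the EGF family, 0.12 [0.20] for the Notch pathway and 0.11 [0.014] for cell death. No member of these 9 lists passed in edgeR or in DESeq2 on the 7 libraries, and at an unadjusted p below 0.05 were 3 higher and 9 lower xenobiotic enzyme genes, 6 higher and 1 lower cell death genes and 0 to 3 members a direction of each other list. The shares of all genes tested at that p were 3.83% higher and 4.57% lower. Casp12, an inflammatory caspase gene, had 46.7, 157, 197 and 75.7 untreated and 336, 207 and 259.6 after DSS. Fmo5, a flavin monooxygenase, had 185, 217, 209.6 and 299.8 and 101, 144 and 149.8. Klf2, an immediate early transcription factor gene, had 84.0, 99.7, 63.9 and 178 and 40.1, 57.2 and 48.9, and none of the 3 overlapped (log2 fold changes 1.17, -0.79 and -1.12).

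Junction, keratin, mucin, integrin, protease and collagen genes gave no call in edgeR, and of them DESeq2 on the 7 libraries called Cdh1, while 0 to 2 members a direction of each list had an unadjusted p below 0.05. Claudins and tight junction genes were higher in 7 of 19 (median -0.06 [-0.07]), and the barrier claudin gene Cldn8 had 3756, 2789, 5679 and 3547 untreated and 2421, 1846 and 2366 after DSS, without overlap. Cldn4 had 382, 435, 861 and 857 and 346, 435 and 289, and untreated replicate 1 lay within the DSS range. Krt8, the simple epithelial keratin, had 112014, 81689.7, 93919 and 114291 and 152724, 130421 and 138106 (log2 fold change 0.48), and 7 of 12 keratins were higher. Itga2, a collagen receptor subunit, had 246, 432, 559 and 115 and 589.7, 682 and 652, without overlap, and the mucin Muc1 had a log2 fold change of 0.66. Collagen chain genes were lower in 11 of 16 tested of 29 (median -0.20 [-0.14]), at low levels, with Col3a1 at 61.5, 21.1, 37.2 and 103 untreated and 42.2, 52.3 and 48.9 after DSS. Col1a1 had 25.1, 0, 14.6 and 44.2 and 19.6, 14.5 and 26.0, and the groups overlapped in both. The Hox genes of colon position had a median of -0.14 [-0.24] and the intestinal transcription factor genes one of -0.02 [-0.03], with none past the threshold in either tool and 0 and 2 genes at an unadjusted p below 0.05. Without untreated replicate 1, the genes at an unadjusted p below 0.05 numbered 0 among the chemokines and cytokines, 3 lower among crypt base genes, 3 lower among BMP and TGF-beta genes, 0 higher and 1 lower among goblet cell genes, 1 higher and 3 lower among tuft cell genes, 8 higher among nuclear genes of oxidative phosphorylation and 1 higher and 2 lower among the Hox genes.

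Marker lists of other cell types overlapped between the groups. Summed normalized counts of the fibroblast list were 2954 to 5307 untreated and 4145 to 4647 after DSS (exact permutation test, two-sided p = 1.00). Of the 16 fibroblast markers 11 were tested, and Col1a1 and Col3a1 had at most 44.2 and 103 in a Smad4 KO library. That sum thus came mostly from other members, and alone it does not measure the amount of fibroblasts. Summed counts of the macrophage and monocyte list were 2096 to 3238 and 2779.6 to 3844 (exact permutation p = 0.514), and those of T and NK cells 443 to 1693 and 900.0 to 1143 (exact permutation p = 0.686). The B and plasma cell list had 225 to 1633 and 176 to 351 (exact permutation p = 0.114), the highest in untreated replicate 4, and its member Igkc had 299.5, 165, 305 and 1097 and 93.7, 123 and 233. The squamous list had 4716 to 19417 and 8142 to 15152, again highest in untreated replicate 4 (exact permutation p = 0.571). Of its 13 members 5 were tested, 2 higher and 3 lower by sign, with a median log2 fold change of -0.56 [-0.49]. With 3 libraries against 4, the exact permutation test cannot give a two-sided p below 0.0571, and the part of these cell types in the results above was not tested.

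The response to DSS was then compared with that of WT, by the difference of the 2 log2 fold changes in the same fit. Rpl34 was the 1 gene of 15127 that passed (0.00661%), with and without untreated replicate 1, and had a difference of 5.25 ± 0.46 (SE, edgeR adjusted p = 6.5e-05). This difference was not tested for the sum of Rpl34 and its copies. Among the other called genes the difference was 1.47 for Ccdc109b, 3.27 for Gm10154, -1.46 for Npas2, -1.10 for Trpm6, 0.96 for Per1, 0.80 for Gpd1, 0.64 for Slc25a4, -0.74 for Churc1 and -0.53 for 2010002M12Rik, with edgeR adjusted p-values of 0.10 to 0.69. Ido1, Lcn2 and Reg3b had log2 fold changes of 1.86, 1.58 and 1.78 in WT beside 1.71, 0.97 and 1.68 in Smad4 KO, and no difference of theirs passed (edgeR adjusted p of 0.73 or above).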

How the data were processed

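RNA from the colonic epithelium was sequenced in pairs of reads from 14 libraries, of which 4 were untreated Smad4 KO and 3 Smad4 KO after DSS. Per the labels, HISAT2 placed the reads on mm9 and featureCounts assigned them to genes, and the values as deposited by the authors are raw counts of 37680 genes, 14001 of them at 0 in every library. The strand setting, the annotation used for counting and the treatment of reads that match several genes are not given in the sources used here. Positions of genes were taken from the NCBIM37 annotation, matched on the deposited gene identifiers, and 37310 of 37680 genes had one.

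A gene was tested when 3 or more of the 14 libraries held 10 or more counts of it (15127). The test was edgeR's quasi-likelihood test (edgeR 4.0.16, R 4.3.3) with TMM normalization and 4 group means over all 14 libraries, which share 1 estimate of the spread, and Benjamini-Hochberg adjustment over all genes tested. The difference of the DSS response between the genotypes came from the same fit. DESeq2 1.42.0 and other normalizations, filters, covariates and sets of libraries were the alternatives. The scripts were tested on simulated counts. Single sums were compared by an exact permutation test, two-sided. The genes named were, in each direction, up to 15 called with and without untreated replicate 1 at a mean of at least 50 normalized counts, or else the 5 with the smallest p, up to 4 members of each list with the smallest p, and 12 genes to which the study or the tissue points. Of these, list members are described where their unadjusted p was below 0.05. Agxt2l1, Sec24b and Ostc were named for their position and Rpl34-ps1 for its sequence, after the values were seen. The libraries and the 53 gene lists were chosen with earlier results of these data known. Of 1289 list members 1278 matched a gene of the table. Promoter sequences are those of RefSeq (GRCm38.p6), matched by symbol, and the sequences of the Rpl34 copies were read from the NCBIM37 genome. A few genes of the lists are not reported here by name.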

Additional observations from a re-analysis of the deposited data

Results flagged for a closer look

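The change after DSS in the counts assigned to Rpl34 differed between the genotypes by 5.25 on the log2 scale in the interaction test of edgeR (adjusted p = 6.5e-05). These counts depend on how reads were divided among near-identical copies, as given above. The share of Rpl34 in their sum was 0.875% to 1.61% in untreated Smad4 KO and 45.6% to 47.1% in Smad4 KO after DSS. In WT it was 41.8% to 46.6% untreated and 88.9, 46.9 and 90.9% after DSS. The sum did not pass in Smad4 KO, and its difference between the genotypes was not tested.

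Among the 114 genes named in the text, 7 had 1 untreated Smad4 KO library whose distance from the nearest other one, divided by the range of the 4, was above Dixon's limit for 4 values, where chance alone gives about 1 in 20. Untreated replicate 1 stood apart with 3111 normalized counts of Smad4 and 1216 of Id3. Untreated replicate 4 stood apart with 1097 of the immunoglobulin light chain gene Igkc, 8219.9 of Fut2, 1395 of Clock and 126 of Cry2, the last 2 being the lowest of their group. Untreated replicate 3 stood apart with 2139 of Trpm6, and without it Trpm6 had a log2 fold change of -1.26 (edgeR adjusted p = 0.039).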

How the results depend on the processing

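Against 6 higher and 4 lower genes, there were 10 higher with no filter on low counts. DESeq2 gave 36 higher and 34 lower with all 14 libraries, 40 and 30 with the 7 of Smad4 KO, and 34 and 31 without untreated replicate 1. EdgeR on the 7 or 6 Smad4 KO libraries gave 1 higher and 0 lower. The name prefix term gave 2 and 0, or 1 and 0 without untreated replicate 1, the covariate of the mitochondrial share 3 higher, and the sum of the Rpl34 copies 1 higher. Without untreated replicates 2 and 4, 3 were higher and 1 lower, and 2 were lower without untreated replicate 1 and the mitochondrial genes. Leaving out 1 Smad4 KO library each gave 3 to 6 higher and 0 to 4 lower genes. Other normalizations and filters kept both counts within 1.5 times. The fits without untreated replicates 2 and 4, with 2 changes at a time, and with summed copies were chosen after seeing the data. The cause of these differences was not tested.

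With the replicate number as a replicate block, 4 genes were higher and 2 lower. Samples of the same number correlated in their deviations from the group means at 0.00784, -0.0242 and -0.081, and no DSS sample correlated best with the untreated one of its number. The labels do not say whether samples of the same number belong together. These values cannot decide it, because a small shared effect could leave values like them.

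Signs turned for the following genes, none of which had passed. Col1a1 (-0.0705) had 1.04 with the block, 1.65 with the prefix term, 0.61 with the mitochondrial share, 0.0147 without untreated replicates 2 and 4, -0.47 to 0.57 with 1 library left out, and, without untreated replicate 1, 0.0277 in DESeq2, 0.0181 in edgeR on 6 libraries, 1.75 with the prefix term and 0.0306 without mitochondrial genes. Col3a1 (-0.22) had 0.48 with the block, 0.80 with the prefix term, 0.85 with it and without untreated replicate 1, 0.10 with the mitochondrial share and -0.49 to 0.25 with 1 library left out. Pdgfa (-0.27) had 0.0464 with the block, 0.0166 with the mitochondrial share, 0.55 without untreated replicates 2 and 4 and -0.55 to 0.15 with 1 library left out. Without untreated replicate 1, Smad4 had 0.0947 in DESeq2, 0.10 in edgeR on 6 libraries, 0.000189 with the prefix term and 0.10 without mitochondrial genes, and Id3 had 0.88, 0.87, 0.68 and 0.87 in the same fits. With 1 library left out, Smad4 had -0.93 to 0.0950 and Id3 -2.89 to 0.86. Duoxa2 had -0.00174 with the prefix term and without untreated replicate 1, Ly6g 0.0140 without untreated replicates 2 and 4 and -0.34 to 0.0596 with 1 library left out, and Ostc -0.0460 to 0.32. Summed levels of marker lists, as log2 of DSS over untreated with 1 library left out, were -0.16 to 0.10 for fibroblasts, -0.18 to 0.0823 for smooth muscle, -0.16 to 0.22 for neutrophils, -0.41 to 0.0935 for glia and neurons and -0.49 to 0.66 for erythrocytes.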
